A study of Mus musculus with 18 samples.

Results

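The constitutive proteasome subunit genes described here are the 34 genes named Psma1 to Psma7, Psmb1 to Psmb7, Psmc1 to Psmc6 and Psmd1 to Psmd14. They were taken by symbol from the deposited expression table, and all 34 were found among its 19862 genes. Following their names, 14 members (Psma and Psmb) were counted as core and 20 (Psmc and Psmd) as cap. They lie on 15 chromosomes of the mouse genome (RefSeq, GRCm38.p6). Of the genes most described below, Psmd4 is at chr3:95032688-95042614 on the minus strand, Psmd2 at chr16:20651122-20663414, Psmd1 at chr1:86064619-86139295, Psma3 at chr12:70969283-70995877 and Psmd9 at chr5:123228190-123250126, all 4 on the plus strand.

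The proteasome is the protease that degrades most ubiquitin-tagged proteins in the nucleus and cytosol. Its core is a barrel of stacked rings, with alpha subunits (Psma) that gate the entrance and beta subunits (Psmb) that line the chamber, of which Psmb5, Psmb6 and Psmb7 carry the proteolytic sites. The cap binds ubiquitin chains, removes them and threads the unfolded substrate into the core. Its Psmc subunits form a ring of ATPases, and the other cap subunits include the ubiquitin receptor Psmd4, the deubiquitinase Psmd14 and the large scaffold subunits Psmd1 and Psmd2. Psmd5, Psmd9 and Psmd10 carry the same gene name but are chaperones of cap assembly that leave the finished particle. Subunits are needed in matched amounts, and their genes are known to be raised together by the transcription factor encoded by Nfe2l1 when proteasome activity is limiting.

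The libraries came from mouse osteosarcoma (bone tumour) cells of mixed background, labelled as postnatal day 299. The cells were grown from tumours of mice with conditional knockout alleles of p53 and Rb, carried floxed Prmt1 alleles (Prmt1f/f), and stably expressed CreER, a recombinase that tamoxifen activates. Control cells, labelled wild type, were the same CreER cells given ethanol, so control and knockout share the floxed alleles, the p53 and Rb background and the CreER transgene. Knockout cells, labelled Prmt1-/-, were given tamoxifen. From each kind of cell, 3 kinds of RNA were sequenced with 3 replicates each, giving 18 libraries in 6 groups. Total is RNA of the cleared lysate, Light is RNA pooled from gradient fractions below 3 ribosomes, and Heavy is RNA pooled from fractions above 3 ribosomes. The labels do not say whether replicates were separate cultures or how many clones the cells descend from, so p-values measure the spread between these libraries only. The ethanol and tamoxifen treatments also cannot be told apart from the genotype.

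Depths recovered from the deposited values were 32255673 to 57948663 reads per library. Every member was above 0 in every library, between 14.4 and 1422 counts per 1000000 reads (CPM). The deleted gene was checked first. Prmt1 CPM was 256, 277 and 285 in Total control and 147, 176 and 173 in Total knockout. In Heavy RNA it was 412, 378 and 370 in control and 64.4, 121 and 145 in knockout. In Light RNA it was 255, 243 and 218 against 166, 229 and 235, where the groups overlapped and no change was called (log2 change -0.20, limma adjusted p = 0.506). Of 8 osteoblast markers, the collagen genes Col1a1 and Col1a2, the regulators Runx2 and Sp7, and Alpl and Spp1 were above 0 in every library, while the mature markers Ibsp and Bglap were at or near 0. Their summed CPM was 1650 to 4670 in control and 3130 to 9110 in knockout libraries. In Total RNA Alpl (1.52), Spp1 (0.81) and Bglap (0.22) rose, and Sp7 (-1.46) and Runx2 (-0.70) fell. The summed CPM of 6 macrophage markers was 6.62 to 10.2 in control and 12.2 to 23.0 in knockout libraries, that of 5 epithelial markers 0.634 to 1.38 and 5.9 to 13.1, that of 4 endothelial markers 0.0502 to 0.244 and 0.29 to 1.1, and that of 4 lymphoid markers at most 0.0818 and 0.381. The defining macrophage gene Emr1 was at most 0.0528 CPM, and Ptprc, which marks all blood cells, at most 0.0721. Of 5 macrophage markers tested, Cd68, Csf1r, Lyz2 and Cd14 were called higher in Total and Light knockout RNA. In Heavy RNA Cd68, Csf1r and Lyz2 were. Of 5 epithelial markers, Krt8, Krt18 and Krt14 were called higher in all 3 kinds of RNA, and Cdh1 in Light RNA. Among all genes, 16.1% were called higher in Total, 26.8% in Light and 18.5% in Heavy RNA. The part of these cell types in the results was not tested. Heavy knockout replicate 1 stood apart most from its group (root mean square deviation 0.339 on the log2 scale, against 0.0991 to 0.244 in the other libraries). Calls of members that were lost without it are named below, and values without it are given for some of the members.

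A CPM is a share of its own library. Differences between Heavy and Light RNA, and between knockout and control, are therefore changes in share, not in amount of RNA. All changes below are on the log2(CPM + 1) scale with the standard error (SE) of a limma fit over all 18 libraries. A change counted as called when its p, adjusted after Benjamini-Hochberg over the 17515 genes tested (all 34 members among them), was under 0.05. In these bulk libraries, fewer cells holding a message and less of it per cell cannot be told apart.

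Core messages were the more abundant in Total control RNA once transcript length was allowed for. The median was 287.3 CPM per kilobase of transcript over the 14 core genes and 99.05 over the 20 cap genes. Psmb3, a non-catalytic beta subunit, was highest at 551.6 ± 34.2 CPM per kilobase (SD, n = 3), followed by the alpha subunit Psma7 at 466.4 ± 15.0 and the beta subunit Psmb4 at 409.7 ± 20.3. Psmb6 at 388.8 ± 17.4 came next, with values that overlapped those of Psmb4 and of Psmb7, at 368.1 ± 6.10. Psmb5 was at 312.7 ± 20.8. Among cap genes Psmd2 (241.6 ± 14.2), Psmd7 (239.3 ± 3.52) and Psmd4 (231.4 ± 17.9) were highest, and these 3 differed by less than their spread. The chaperone genes were the lowest of all, with Psmd5 at 34.3 ± 1.40, Psmd9 at 32.6 ± 1.41 and Psmd10 at 13.97 ± 0.542 CPM per kilobase. The order depends on the transcript model used for the length, which may not be the one most used in these cells.

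All 34 genes together held 0.887% of Total control reads, 0.715% of Light control reads and 1.42% of Heavy control reads (means of 3). In knockout cells the shares were 0.840%, 0.827% and 1.21%. The share of the cap differed most between the fractions. It was 0.2998%, 0.258% and 0.279% in the 3 Light control libraries, 0.4004%, 0.365% and 0.344% in Light knockout, 0.714%, 0.702% and 0.719% in Heavy control and 0.651%, 0.673% and 0.589% in Heavy knockout. For the cap, no Light knockout library fell as low as a Light control library, and no Heavy knockout library reached a Heavy control library. The core's share overlapped between Light control (0.462%, 0.407% and 0.439%) and Light knockout (0.524%, 0.462% and 0.385%). In Heavy RNA it was 0.765%, 0.677% and 0.679% in control and 0.474%, 0.630% and 0.621% in knockout, with Heavy knockout replicate 1 the lowest.

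**Figure D1:**
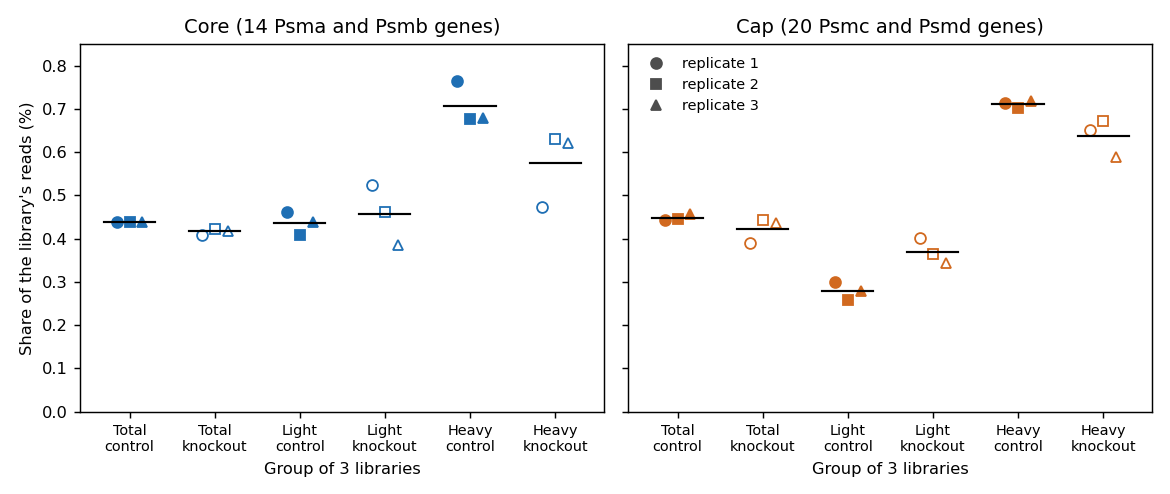
Share of each library's reads (percent) held by the 14 core genes (left) and the 20 cap genes (right), by group. Each symbol is a library, filled for control and open for knockout, and the black line is the mean of 3. The cap is lowest in Light control, at 0.258% to 0.2998%, and highest in Heavy control, at 0.702% to 0.719%, with the knockout libraries between these ranges in both fractions.

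In control cells, most proteasome messages took a higher share of Heavy than of Light RNA. The difference Heavy minus Light was called higher for 29 of the 34 members and lower for 1, where 23.6% and 27.1% of all genes tested were called. The members' median was 1.19, against -0.01 over all genes tested and 0.06 over genes averaging 1 CPM or more. The 6 ATPase genes were all called higher, with a median of 1.85, as were 10 of 11 other cap subunits (median 1.55), 5 of 7 alpha subunits (1.05), 6 of 7 beta subunits (0.63) and 2 of 3 chaperones (0.67). Over all members, Heavy and Light values did not overlap for 31 higher and 2 lower genes, against 26.8% and 31.6% of all genes.

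The ubiquitin receptor gene Psmd4 had the highest difference, with 162, 130 and 134 CPM in Light control and 574, 560 and 541 in Heavy control. Every Heavy library was above every Light library (1.97 ± 0.12 SE, adjusted p = 4.30e-09). The ATPase gene Psmc5 followed, with 149, 130 and 140 CPM in Light and 553, 526 and 510 in Heavy (1.92 ± 0.12, adjusted p = 4.09e-09). Psmd12, a lid subunit, was at 42.1, 42.7 and 44.6 CPM in Light and 146, 167 and 182 in Heavy (1.91 ± 0.15, adjusted p = 2.52e-08). The ATPase gene Psmc3 was at 189, 162 and 170 CPM in Light and 664, 639 and 651 in Heavy (1.90 ± 0.12, adjusted p = 4.30e-09). For these 3 genes too the fractions did not overlap.

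The catalytic beta genes differed among themselves. Psmb5, the chymotrypsin-like site, was at 288, 241 and 252 CPM in Light control and 544, 496 and 484 in Heavy control (0.96 ± 0.11, adjusted p = 1.84e-06). Psmb7, the trypsin-like site, was at 361, 311 and 343 in Light and 777, 679 and 698 in Heavy (1.08 ± 0.12, adjusted p = 5.91e-07). Psmb6, the caspase-like site, was at 414, 365 and 394 in Light and 463, 428 and 415 in Heavy, which did not overlap but were close, and it was not called (0.16 ± 0.14, adjusted p = 0.425). The difference between Psmb6 and the other catalytic genes was not tested.

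A few members did not follow. Psmd9, the cap assembly chaperone, was the only member called lower in Heavy control RNA, with 157, 135 and 154 CPM in Light and 96.8, 94.2 and 85.0 in Heavy (-0.69 ± 0.17, adjusted p = 0.00226). With the trend with coding length removed it was -0.09 and not called (adjusted p = 0.474). Much of its exon sequence (1849 of 7248 bases) overlaps the lincRNA gene Gm26745 on the opposite strand, and no source used here gives the strand setting of the counting, so reads of the pair may be mixed. Psma3, Psma7, Psmb6 and the lid gene Psmd8 were not called. Psmd8 was at 433, 360 and 395 CPM in Light and 344, 265 and 271 in Heavy, non-overlapping (-0.44 ± 0.26, adjusted p = 0.182).

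**Figure D2:**
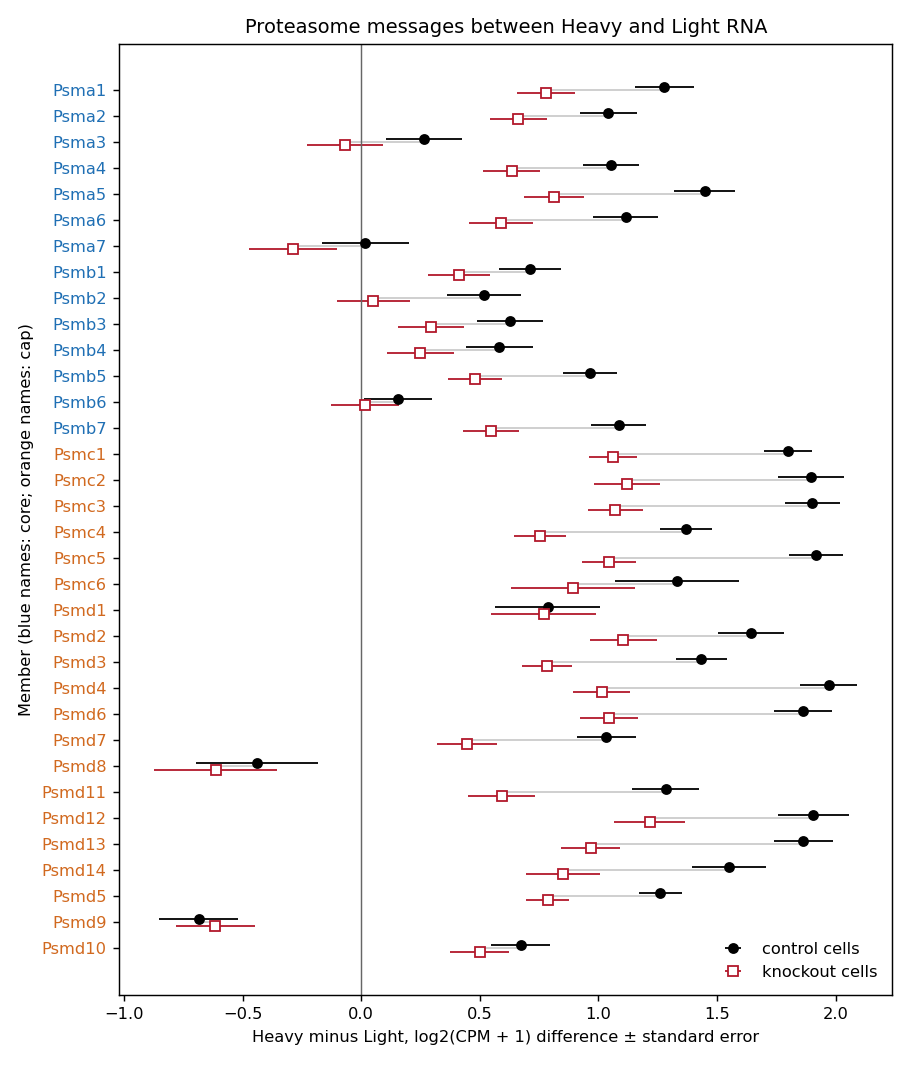
Heavy minus Light difference in log2(CPM + 1) for each of the 34 members, in control cells (black circles) and knockout cells (open red squares), each with its standard error from the limma fit. Control values run from -0.69 (Psmd9) to 1.97 (Psmd4), Psmd9 and Psmd8 lie below 0, and all knockout values but that of Psmd9 lie to the left of the control values.

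Heavy RNA was also set against Total RNA in control cells, a comparison added after the values had been seen. Heavy minus Total was called higher for 26 members and lower for 1 (12.8% and 31.3% of all genes). The median was 0.73 for the core and 0.69 for the cap. It was -0.06 over all genes tested and -0.23 over genes averaging 1 CPM or more. The exception was Psmd1, the large scaffold subunit, at 156, 133 and 139 CPM in Total, 22.3, 25.8 and 28.1 in Light, and 32.3, 48.5 and 55.9 in Heavy. It was below its Total level in both fractions (-1.66 ± 0.22 for Heavy minus Total, adjusted p = 1.74e-05). Its partner scaffold Psmd2 was at 681, 704 and 762 CPM in Total and 862, 845 and 962 in Heavy, and was not called (0.31 ± 0.14, adjusted p = 0.084). Psmd1 shares exon bases with Htr2b on the opposite strand (252 of 7265) and with the gene model Gm21972 on its own strand (301 of 7265), so part of its value may belong to them.

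In Total RNA, no member was called changed after Prmt1 loss by limma, where 16.1% of all genes were called higher and 10.3% lower. At an unadjusted p under 0.05, 5 members were lower and 0 higher, and voom on the recovered reads called 0. The members' median log2 change was -0.09, with 27 of 34 below 0, against 0.01 over all genes tested. Members whose 3 knockout values all lay below the 3 control values numbered 13, and 2 lay all above (20.2% and 24.4% of all genes). The lowest was the alpha subunit Psma3, at 321, 277 and 254 CPM in control and 226, 211 and 197 in knockout (-0.42 ± 0.16, adjusted p = 0.0647). The highest was Psmd8, at 236, 242 and 248 in control and 279, 348 and 319 in knockout (0.37 ± 0.26, adjusted p = 0.325). Neither pair of groups overlapped, and neither change was called.

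In Light RNA, 13 of 20 cap messages and 2 of 14 core messages rose after Prmt1 loss. Of the 34 members, 15 were called higher and 2 lower, where 26.8% and 12.7% of all genes were called. The cap accounted for 13 of the 15 (Psmc1, Psmc2, Psmc3, Psmc5, Psmd1, Psmd2, Psmd3, Psmd4, Psmd5, Psmd6, Psmd12, Psmd13 and Psmd14), and the core for Psmb5 and Psmb7. The median change was 0.46 over the cap and 0.07 over the core, against 0.05 over all genes tested and 0.14 over genes averaging 1 CPM or more. With the trend with coding length removed the medians were 0.23 and 0.19, and the difference between cap and core was not tested. All higher calls lost by this removal were of cap genes, and Psmb5 and Psmb7 stayed called. Members with every knockout library above every control library numbered 15, and those with every one below 2 (33.3% and 17.3% of all genes). The mean log2 level of the core minus that of the cap was 1.39, 1.36 and 1.38 in the 3 Light control libraries and 1.10, 1.12 and 0.952 in the knockout libraries, which did not overlap. Of all genes called in Light RNA, 67.9% were higher, a share of 47.3% with quantile normalization and 46.2% with median-of-ratios scaling, which moved the median gene of at least 1 CPM from 0.14 to -0.02 and -0.06. The members' median was 0.28, and 0.24 and 0.06 with these scalings, while the core's was 0.02 and turned to -0.16. The count of 15 was 5 with median-of-ratios scaling, 7 with the trend with coding length removed, and 9 without Light knockout replicate 1. Of all genes, 3197 of 17515 were called higher with median-of-ratios scaling and 3334 of 15637 with the length trend removed. In the main fit 4702 of 17515 were.

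Psmd2 changed most, from 314, 256 and 284 CPM in Light control to 526, 543 and 517 in Light knockout (0.90 ± 0.14, adjusted p = 1.07e-04). Psmd1 went from 22.3, 25.8 and 28.1 to 50.5, 35.7 and 43.5 (0.73 ± 0.22, adjusted p = 0.0149). Psmd13, a lid subunit, went from 73.9, 56.0 and 62.5 to 117, 99.9 and 94.6 (0.69 ± 0.13, adjusted p = 4.13e-04). For these 3 genes every knockout library was above every control library. The ATPase gene Psmc2 went from 90.2, 83.7 and 93.3 to 170, 130 and 123 (0.64 ± 0.14, adjusted p = 0.00164). Psmd4 went from 162, 130 and 134 to 248, 194 and 217 (0.62 ± 0.12, adjusted p = 6.59e-04), and the deubiquitinase Psmd14 from 52.8, 54.4 and 64.6 to 100, 72.1 and 73.6 (0.50 ± 0.16, adjusted p = 0.0176). These groups did not overlap either. Psmc1, Psmd2, Psmd4 and Psmd13 were called in all alternative analyses of this comparison. The calls of Psmd1 and Psmd14 were lost with either other scaling and with the coding length trend removed. Both were also lost without Light control replicate 1 or Light knockout replicate 1. That of Psmd14 was lost too without Light control replicate 2 or without all knockout libraries numbered 1. The call of Psmc2 was lost with the coding length trend removed.

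Among the core genes, the rises were small. Psmb7 went from 361, 311 and 343 CPM to 503, 415 and 377 (0.34 ± 0.12, adjusted p = 0.0269), and Psmb5 from 288, 241 and 252 to 356, 330 and 280, where the groups overlapped (0.30 ± 0.11, adjusted p = 0.0461). Of 18 alternative analyses, the call of Psmb5 was lost in 11 and that of Psmb7 in 5. Both were lost without Light control replicate 2 or 3 or Light knockout replicate 1, and that of Psmb5 also without Light knockout replicate 2. The members that fell were Psmd9, from 157, 135 and 154 to 100.5, 116 and 98.8 (-0.50 ± 0.17, adjusted p = 0.0263), and Psma3, from 314, 286 and 330 to 262, 233 and 203 (-0.42 ± 0.16, adjusted p = 0.0485). In both the knockout libraries were all below the control libraries. Both calls were lost without Light control replicate 1 or 3 or Light knockout replicate 3, that of Psma3 also without Light control replicate 2 or Light knockout replicate 2, and that of Psmd9 without Light knockout replicate 1. The chaperone gene Psmd5 was at 99.9, 96.3 and 98.9 in control and 138, 110 and 121 in knockout (0.32 ± 0.09, adjusted p = 0.0108), a direction that turned with the coding length trend removed. The third chaperone gene, Psmd10, was at 20.1, 17.7 and 21.0 against 21.9, 16.0 and 14.4 and was not called.

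In Heavy RNA, messages of both the core (6 of 14) and the cap (7 of 20) fell. Of the 34 members, 13 were called lower and 1 higher, where 10.4% and 18.5% of all genes were called. The lower calls were 4 alpha subunits (Psma2, Psma3, Psma4 and Psma5), 2 beta subunits (Psmb2 and Psmb3), 3 ATPases (Psmc3, Psmc4 and Psmc5), 3 other cap subunits (Psmd4, Psmd6 and Psmd7) and the chaperone Psmd10. The median change was -0.31 over the core and -0.20 over the cap, against 0.02 over all genes tested. Of all members, 21 had every knockout library below every control library and 1 above (13.8% and 24.1% of all genes). Of all genes called in Heavy RNA, 64.1% were higher, a share of 49.1% with quantile normalization and 44.6% with median-of-ratios scaling, and the members' median of -0.28 was -0.29 and -0.45 with these. The 13 lower calls became 6 without Heavy knockout replicate 1 (Psma2, Psma4, Psma5, Psmb2, Psmb3, Psmd6 and Psmd10 were lost). The count was 3 without Heavy control replicate 1, 8 without replicate 2 and 6 without replicate 3. Median-of-ratios scaling gave 22, where 3158 of all 17515 genes were called lower, against 1819 in the main fit. A fit of the 6 Heavy libraries alone gave 1. The ATPase gene Psmc4 was called in all alternatives, at 294, 283 and 271 CPM in control and 195, 233 and 202 in knockout (-0.43 ± 0.11, adjusted p = 0.00682).

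Psma3 fell most, from 397, 357 and 363 CPM in Heavy control to 160, 257 and 261 in Heavy knockout (-0.75 ± 0.16, adjusted p = 0.00206, and -0.52 without Heavy knockout replicate 1, adjusted p = 0.00365). Psmd7, the lid partner of Psmd14, went from 683, 658 and 656 to 365, 503 and 506 (-0.55 ± 0.13, adjusted p = 0.00322). Psmb3 went from 764, 683 and 686 to 412, 589 and 577 (-0.45 ± 0.14, adjusted p = 0.0229). Psmb2 went from 459, 402 and 402 to 234, 342 and 367 (-0.45 ± 0.15, adjusted p = 0.0404). In all 4 genes the groups did not overlap and Heavy knockout replicate 1 was the lowest library. Without that library Psmb2 and Psmb3 were no longer called.

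Psmd1 was the single higher call, at 32.3, 48.5 and 55.9 CPM in Heavy control and 112, 62.1 and 57.7 in Heavy knockout (0.72 ± 0.22, adjusted p = 0.0226). It rests on Heavy knockout replicate 1, the library at 112 CPM, and was lost without it, as it was without Heavy control replicate 1. Without Heavy knockout replicate 1 the single higher call was Psmd8 (0.42, adjusted p = 0.0363), at 344, 265 and 271 CPM in control and 153, 364 and 417 in knockout. Psmd2 pointed the same way, at 862, 845 and 962 in control and 1422, 1143 and 908 in knockout, with overlapping groups and no call (0.36 ± 0.14, adjusted p = 0.0679). The catalytic genes were not called in Heavy RNA. Psmb5 was at 544, 496 and 484 CPM in control and 403, 481 and 462 in knockout (-0.18 ± 0.11, adjusted p = 0.27), Psmb6 at 463, 428 and 415 against 285, 412 and 432 (-0.23 ± 0.14, adjusted p = 0.264), and Psmb7 at 777, 679 and 698 against 550, 683 and 654 (-0.19 ± 0.12, adjusted p = 0.241).

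**Figure D3:**
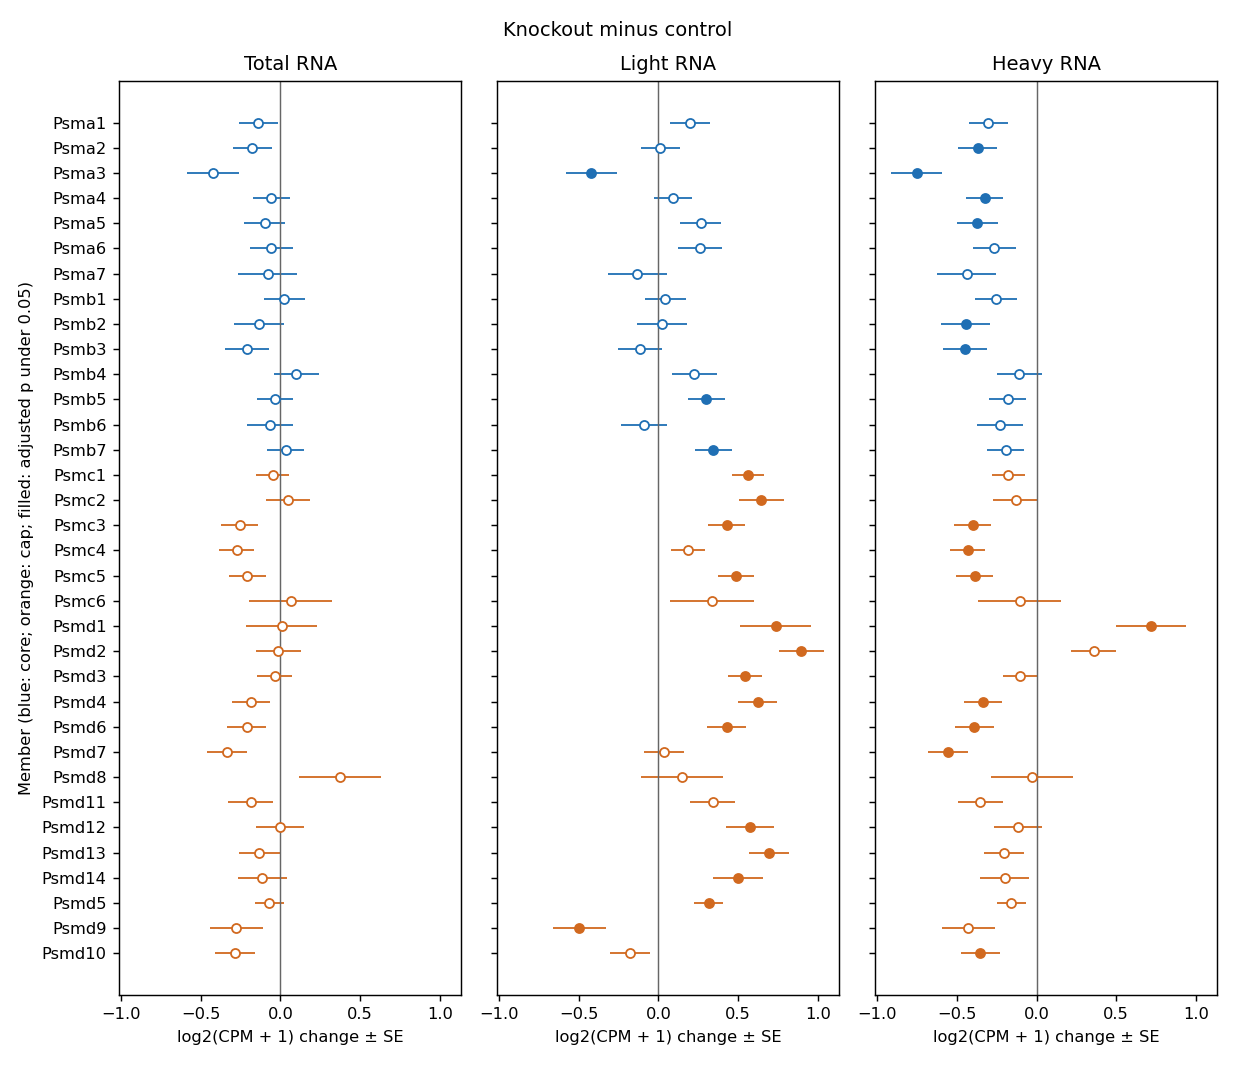
Knockout minus control log2(CPM + 1) change of each member in Total, Light and Heavy RNA, with its standard error from the limma fit. Blue marks core and orange cap genes, and filled circles mark an adjusted p under 0.05. No circle is filled in Total RNA, 13 cap genes are filled on the right in Light RNA, and 13 members are filled on the left in Heavy RNA.

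**Figure D4:**
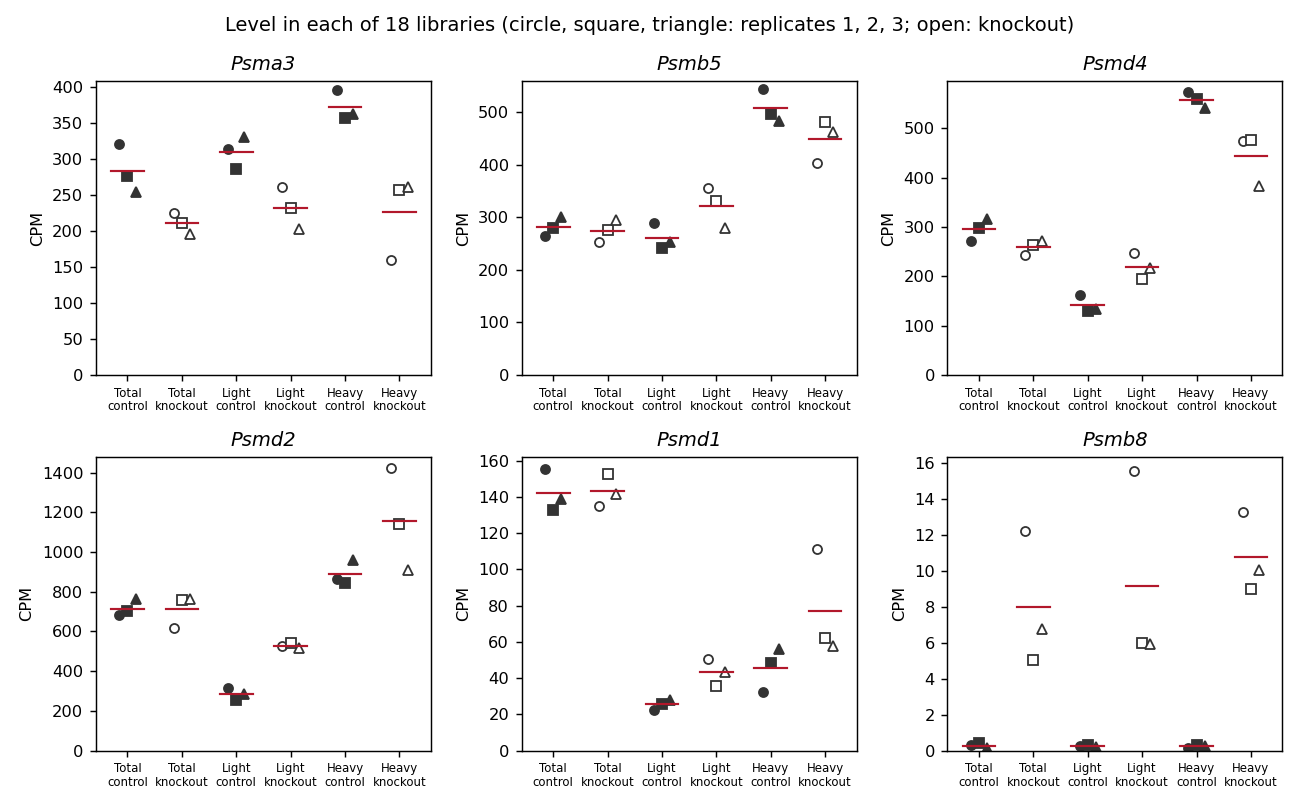
CPM of 6 genes in each of the 18 libraries (linear axis from 0), with red lines at the mean of 3 libraries. Psmd4 and Psmd2 are lowest in Light control, Psmd1 is highest in Total RNA, and Psmb8, an immunoproteasome gene that is no member, is at 5.02 CPM or more in every knockout library and at most 0.403 CPM in every control library.

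The Heavy and Light changes were compared directly by their interaction, Heavy change minus Light change. It was below 0 for 33 of 34 members and called lower for 9, where 2.52% of all genes were called lower and 0.354% higher. All 9 were cap genes, 5 of the 6 ATPases (Psmc1 to Psmc5) and Psmd3, Psmd4, Psmd6 and Psmd13. The median was -0.76 over the ATPases, -0.67 over the cap and -0.40 over the core, against -0.02 over all genes tested and -0.06 over genes averaging 1 CPM or more. Whether core and cap differed was not tested.

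Psmd4 had the strongest interaction (-0.96 ± 0.17, adjusted p = 0.0187). Its Heavy minus Light difference was 1.97 in control and 1.01 in knockout cells. Psmd13 followed (-0.90 ± 0.18, adjusted p = 0.0213), with 73.9, 56.0 and 62.5 CPM in Light control, 117, 99.9 and 94.6 in Light knockout, 241, 222 and 241 in Heavy control and 199, 223 and 189 in Heavy knockout. Psmc5 was at 149, 130 and 140 in Light control, 232, 188 and 172 in Light knockout, 553, 526 and 510 in Heavy control and 405, 449 and 364 in Heavy knockout (-0.87 ± 0.16, adjusted p = 0.0197). In these 3 genes every Light knockout library was above every Light control library. Every Heavy knockout library was below every Heavy control library for Psmd4 and Psmc5, while the Heavy groups of Psmd13 overlapped. Psmc3 was at 189, 162 and 170, then 256, 224 and 224 in Light RNA, and at 664, 639 and 651, then 540, 531 and 418 in Heavy RNA (-0.83 ± 0.16, adjusted p = 0.0212).

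None of the 9 interactions was called in all alternative analyses. The count was 4 with quantile normalization and 0 with median-of-ratios scaling, with the coding length trend removed, or with only the 12 Heavy and Light libraries in the fit. It was 16 without Heavy knockout replicate 1, 0 without Heavy control replicate 1 or 2 or Light control replicate 2 or 3, 1 without Heavy control replicate 3, 2 without Light knockout replicate 1 and 5 without Heavy knockout replicate 3. The interaction of Heavy with Total RNA called 0 members (0.00571% of all genes in each direction). At an unadjusted p under 0.05 it held 1 member higher and 0 lower, and voom on the recovered reads called 0. The interaction with Total RNA was below 0 for 32 of 34 members, with a median of -0.17 against 0.007 over all genes tested. The deleted gene Prmt1 was not called in it either (-1.16), so 0 calls cannot show that no shift occurred.

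In knockout cells most members also took a higher share of Heavy than of Light RNA. Heavy minus Light was called higher for 26 and lower for 1 (16.8% and 26.8% of all genes), with a median of 0.71 against 1.19 in control cells. These comparisons use the same libraries as the interaction. Psmd12 had the highest difference, with 80.2, 57.8 and 58.2 CPM in Light and 182, 155 and 124 in Heavy knockout (1.22 ± 0.15, adjusted p = 7.49e-06). Psmc2 was at 170, 130 and 123 in Light and 362, 328 and 239 in Heavy (1.12 ± 0.14, adjusted p = 7.96e-06). Psmd2, with the Light and Heavy knockout values given above, differed by 1.11 ± 0.14 (adjusted p = 9.91e-06), and Psmc3 by 1.07 ± 0.12 (adjusted p = 2.22e-06). The fractions did not overlap for any of these 4 genes. Psmd9 was again the member called lower, at 100.5, 116 and 98.8 in Light and 46.4, 75.8 and 89.4 in Heavy (-0.62 ± 0.17, adjusted p = 0.00624, and -0.35 without Heavy knockout replicate 1, adjusted p = 0.0128). With the coding length trend removed it was -0.08 and not called (adjusted p = 0.546), and Psmd8 was the member called lower. In a fit of the compared libraries alone Psmd9 was not called either (adjusted p = 0.0977). Without Heavy knockout replicate 1, Psmc6 and Psmd1 were lost from the 26 higher calls and Psmb3 and Psmb4 joined. Psmd8 joined Psmd9 among the lower calls without Heavy knockout replicate 2 (-0.79, adjusted p = 0.0344), and Psmd8 and Psma7 without replicate 3 (-0.89 and -0.47, adjusted p = 0.00876 and 0.0497).

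The members' Light and Heavy changes were higher for longer coding sequences, which spanned 603 to 831 nucleotides in the core and 666 to 2859 in the cap. Across the 34 members, log2 coding length had a Pearson correlation of 0.50 with Heavy minus Light in control cells (0.61 without Psmd1), 0.78 with the Light change after Prmt1 loss and 0.70 with the Heavy change (0.58 without Psmd1). Within the core alone the last 2 values were 0.38 and 0.37, and within the cap 0.77 and 0.79. For Heavy minus Light in control cells the value was 0.26 within the core and 0.36 within the cap. The correlation was 0.215 with the Total change and -0.30 with the interaction (-0.56 without Psmd1). These are descriptions across genes measured in the same libraries, and genes are not replicates. Psmd2 and Psmd1 have the longest coding sequences of the members and the largest Light changes. Psmd9 and Psmd10 have the shortest coding sequences of the cap. The part of coding length in the difference between core and cap was not tested on its own. Its trend over all genes was removed, but this step also shifts the middle of each library, as a change of scaling does. The Light median over genes averaging 1 CPM or more went from 0.14 to -0.03, and 15637 genes remained. The Light median of the core went from 0.07 to 0.19 and that of the cap from 0.46 to 0.23. Removal of the trend and the shift of the middle came together, and the part of each in the lost calls was not tested. Removal of the trend gave 7 higher calls in Light RNA, 6 of them among the 15 (Psmb2 joined). The higher calls lost were all of cap genes (Psmc2, Psmc3, Psmc5, Psmd1, Psmd3, Psmd5, Psmd6, Psmd12 and Psmd14). The core genes Psmb5 and Psmb7 stayed called. In Heavy RNA it gave 12 lower calls, 9 of them among the 13 (Psma7, Psmd5 and Psmd9 joined). The Heavy medians became -0.21 over the cap and -0.25 over the core, and the Light medians are given above.

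**Figure D5:**
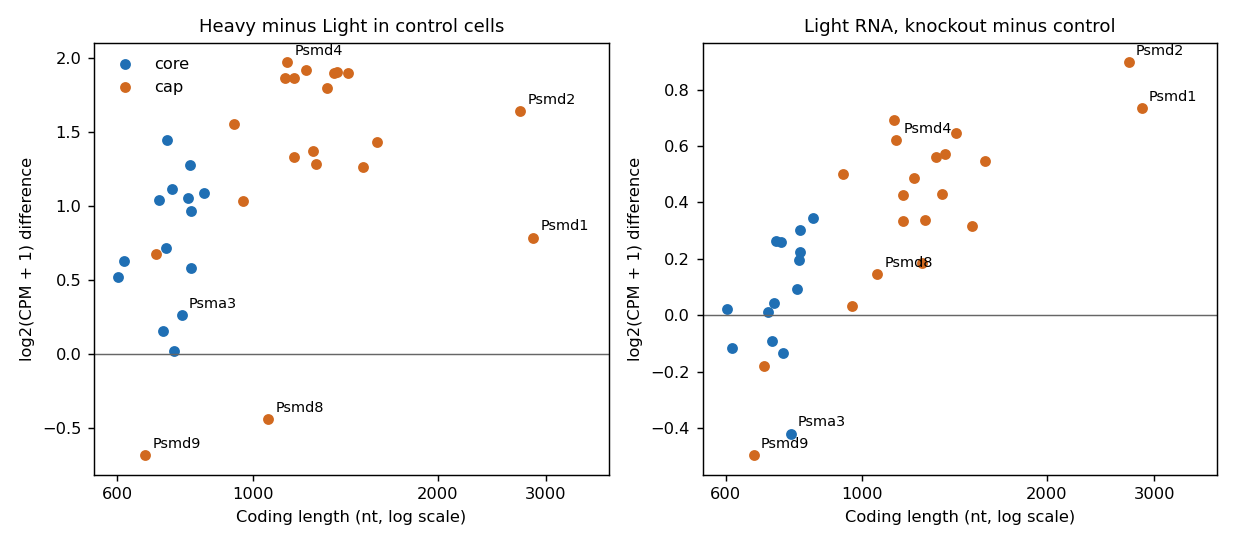
Coding length (nucleotides, log axis) of each member against its Heavy minus Light difference in control cells (left) and its knockout minus control change in Light RNA (right), both in log2(CPM + 1). Core genes (blue) cluster at 603 to 831 nucleotides. In the right plot Psmd2 and Psmd1, the longest, have the highest changes and Psmd9 the lowest.

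The lists of other proteasome genes are read against the shares of all genes called, which were 16.1% higher and 10.3% lower in Total, 26.8% and 12.7% in Light, and 18.5% and 10.4% in Heavy RNA. These lists hold 3 to 7 genes each, and no list was tested against the members. The immunoproteasome genes encode beta subunits that replace the catalytic ones in immune and interferon-treated cells, and 2 of 3 rose in Total and Light RNA and 3 of 3 in Heavy RNA. Psmb8, the alternative to Psmb5, went from 0.292, 0.403 and 0.122 CPM in Total control to 12.2, 5.02 and 6.77 in Total knockout (2.75 ± 0.30, adjusted p = 4.60e-06). Psmb9, the alternative to Psmb6, went from 0.160, 0.0959 and 0.153 to 6.01, 2.69 and 2.96 (2.04 ± 0.25, adjusted p = 1.91e-05). Both remained far below their constitutive counterparts, which were between 253 and 321 CPM in every Total library. Psmb10, the alternative to Psmb7, was called only in Heavy RNA, from 25.8, 24.6 and 25.7 to 55.4, 40.7 and 43.0 (0.83 ± 0.13, adjusted p = 1.71e-04), and its Heavy change exceeded its Light change by 0.81 ± 0.19 (interaction, adjusted p = 0.0327). The activator genes Psme1 and Psme2, known targets of interferon gamma, rose in all 3 kinds of RNA, Psme2 from 60.9, 67.1 and 63.3 CPM to 270, 178 and 191 in Total RNA (1.70 ± 0.17, adjusted p = 2.64e-06). The nuclear activator gene Psme3 fell in Light and Heavy RNA (-0.44 and -0.52, adjusted p = 0.0444 and 0.0254). In Heavy RNA it was at 377, 336 and 331 CPM in control and 164, 281 and 305 in knockout, with Heavy knockout replicate 1 the lowest. Its fit without that library is not given here.

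Of 5 genes for chaperones of core assembly, 2 fell in Total, 3 in Light and 2 in Heavy RNA, and none rose. Of all genes, 10.3%, 12.7% and 10.4% were called lower in these. Psmg3 went from 51.5, 56.5 and 60.1 CPM in Total control to 25.7, 23.4 and 27.0 in Total knockout (-1.11 ± 0.17, adjusted p = 1.30e-04). Psmg1, of the other chaperone pair that builds the alpha ring, went from 74.0, 75.1 and 76.5 to 41.2, 41.6 and 43.4 (-0.82 ± 0.13, adjusted p = 1.32e-04). Pomp, which guides beta ring assembly, was not called in any of the 3. Of 4 genes for cap-associated proteins, the deubiquitinase gene Uchl5 fell in all 3 kinds of RNA, from 33.0, 24.2 and 23.2 to 15.9, 12.2 and 12.7 CPM in Total RNA (-0.92 ± 0.20, adjusted p = 0.00272). Adrm1, the receptor that recruits Uchl5 to the cap, fell in Heavy RNA (-0.45 ± 0.12, adjusted p = 0.0091), and Shfm1 in Light RNA. Heavy values of Adrm1 were 384, 388 and 365 CPM in control and 227, 316 and 298 in knockout, with Heavy knockout replicate 1 the lowest. Of 6 other regulators of the particle, 0 were called higher and 1 lower in Total RNA, 1 and 0 in Light, and 0 and 1 in Heavy.

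Nfe2l1 itself rose in all 3 kinds of RNA. It went from 215, 244 and 230 CPM in Total control to 481, 341 and 376 in Total knockout (0.78 ± 0.17, adjusted p = 0.00215), with changes of 1.23 in Light (adjusted p = 2.66e-05) and 0.70 in Heavy RNA (adjusted p = 0.00427). Over 7 genes of this factor and of its processing, 2 were called higher and 0 lower in Total, 5 and 0 in Light, and 3 and 1 in Heavy RNA. Of all genes, 16.1% and 10.3% were called in Total, 26.8% and 12.7% in Light, and 18.5% and 10.4% in Heavy RNA. Sel1l, of the membrane complex that extracts proteins from the endoplasmic reticulum, rose in all 3, by 0.72 in Total RNA (adjusted p = 0.0137). Of 6 genes that supply or activate ubiquitin, 1 rose in Total RNA, a share close to that of all genes, 3 rose and 2 fell in Light RNA, and 2 rose and 1 fell in Heavy RNA. Ubb, a polyubiquitin gene, went from 1582, 1893 and 1980 to 2847, 2696 and 2731 CPM in Total RNA (0.61 ± 0.17, adjusted p = 0.0127). Of 5 genes for shuttle proteins that carry ubiquitinated substrates to the cap, 0 were called in Total RNA, 1 was higher and 1 lower in Light, and 2 were lower in Heavy RNA.

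The product of Nfe2l1 is known to bind antioxidant response elements, so the members' promoters were searched on both strands for the core of that element, TGACNNNGC, and for its close form TGAGNNNGC, in the 250 bases before each start in RefSeq (GRCm38.p6). The table held 30 promoters of 28 members. Of these promoters, 40.0% held at least 1 of the 2 motifs, against 23.0% of all 32851 promoters. TGACNNNGC alone was in 16.7% of member promoters and 10.2% of all. A match is a description of the letters, not a site of binding, and a link of these motifs or of Nfe2l1 with the members' levels was not tested. The 4 sequences below show the TGACNNNGC matches that lie clear of the annotated gene, with the motif in capitals, written 5′ to 3′ on the strand of the gene. Those of Psmd12 and Psmc6 hold it on the opposite strand, so its reverse complement is what is printed.

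Psmb5 promoter, chr14:54618009-54618067, minus strand: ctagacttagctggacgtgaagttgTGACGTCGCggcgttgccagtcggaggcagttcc
Psmd9 promoter, chr5:123228134-123228189, plus strand: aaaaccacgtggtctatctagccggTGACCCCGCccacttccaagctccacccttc
Psmd12 promoter, chr11:107479278-107479314, plus strand: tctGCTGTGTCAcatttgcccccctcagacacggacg
Psmc6 promoter, chr14:45329574-45329630, plus strand: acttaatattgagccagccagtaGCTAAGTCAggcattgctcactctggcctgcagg

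Of these 4 genes, Psmb5 and Psmd12 were called higher and Psmd9 lower in Light RNA, where 26.8% and 12.7% of all genes were called. The calls of Psmb5 and Psmd12 were both lost with median-of-ratios scaling. Psmc6 was not called in any comparison of knockout with control, nor was Psmb6, which also holds TGACNNNGC. These are changes in share of Light RNA and do not measure promoter activity.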

How the data were processed

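RNA of mouse osteosarcoma cells was sequenced from cleared lysate (Total) and from pooled polysome fractions (Light, Heavy), 3 libraries for each of 6 groups. The values the authors deposited are on the log2 scale, as log2(CPM + 1): undone, each library summed to 1000000. STAR, edgeR and mm10 are named in the submitters' processing notes, without roles. How reads were counted, strand included, is not given in any source used here. All values came out as whole reads (tolerance 0.1 read), giving 32255673 to 57948663 reads per library. Of the rows, 336 have no symbol and were tested by their identifier.

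Genes above 0 in at least 3 libraries (17515) were fitted with limma 3.58.1 (trend, robust variances, R 4.3.3) on the deposited log2 values as 6 group means. A change was called where its p, adjusted after Benjamini-Hochberg over all genes tested, was under 0.05. The fit was tested on simulated data. The alternatives were 2 other scalings (quantile, median-of-ratios), 2 other filters, no trend, voom on the recovered reads, only the libraries compared, a pseudocount of 0.1, a replicate block, removal of the trend with coding length (GENCODE M21, median of 50 bins), and leaving out each library. An exact permutation test of 3 against 3 libraries cannot go below p = 0.1 and was not used.

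Same-numbered Heavy and Light libraries of one genotype deviated together (r 0.324 to 0.412 in control, 0.276 to 0.602 in knockout). Differently numbered ones gave r -0.404 to 0.132 in control and -0.642 to 0.493 in knockout. Heavy knockout replicate 3 went more with Light knockout replicate 2 (r 0.493) than with Light knockout replicate 3 (r 0.276). The numbers thus appear to pair these fractions in control cells, and less clearly in knockout cells. Knockout and control libraries of one fraction did not pair (r -0.453 to 0.558). With the block, Heavy minus Light calls were 29 higher and 1 lower in control and 26 and 1 in knockout.

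The members and gene lists were chosen with earlier results of these data known. Library values are given for up to 4 called members at each end of a comparison, and for the catalytic subunits, Psmd4, Psmd14 and the chaperones. From other lists, counts and up to 4 examples are given. Transcript lengths for levels per kilobase are those of the GENCODE M21 transcript with the longest coding sequence. Exon bases are shared with another gene by 9 members, and 3 members (Psmb5, Psmb6 and Psmb7) have 4 named pseudogenes, whose reads may be mixed with theirs.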

Additional observations from a re-analysis of the deposited data

Results flagged for a closer look

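For 9 members the change after Prmt1 loss differed between Heavy and Light RNA by the limma interaction: Psmc1 (-0.74), Psmc2 (-0.78), Psmc3 (-0.83), Psmc4 (-0.62), Psmc5 (-0.87), Psmd3 (-0.65), Psmd4 (-0.96), Psmd6 (-0.82) and Psmd13 (-0.90), each as Heavy change minus Light change on the log2 scale. Each was higher in Light knockout than in Light control on average and lower in Heavy knockout than in Heavy control. Of the other genes listed, the same interaction was called for the proteasome inhibitor gene Psmf1 (-0.65), the polyubiquitin gene Ubb (-0.94), the shuttle gene Ubqln1 (-0.75), the deleted gene Prmt1 (-1.68) and, in the opposite direction, the immunoproteasome gene Psmb10 (0.81). Over all genes, 441 were called lower and 62 higher.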

How the results depend on the processing

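Counts are members called of 34, and the cause of a change was not tested unless named. Under all alternatives, 29 of 30 calls held for Heavy minus Light in control cells, 25 of 27 for Heavy minus Total, 18 of 27 for Heavy minus Light in knockout cells, 4 of 17 in Light RNA, 1 of 14 in Heavy RNA and 0 of 9 for the interaction. In Total RNA (0 calls), the fit of the 6 compared libraries gave 1 higher and 4 lower, leaving out all knockout libraries numbered 1 gave 1 and 3, quantile normalization 0 and 1, median-of-ratios scaling 0 and 2, and removal of the coding length trend 0 and 3, also with the replicate block. In Light RNA (15 higher, 2 lower), median-of-ratios scaling gave 5 higher and removal of the length trend 7 (9 with the block). Over all genes, 3197 of 17515 were higher with that scaling and 3334 of 15637 with the trend removed. The main fit had 4702 of 17515. The lower count was 1 with genes above 0 in 1 library, without the trend in the variance, and with the block. In Heavy RNA (1 higher, 13 lower), quantile normalization gave 2 higher; median-of-ratios scaling, the compared libraries alone, and the block with the length trend removed gave 0. Lower calls were 22 with median-of-ratios scaling and 1 with the compared libraries alone. Over all 17515 genes, that scaling called 3158 lower in Heavy RNA and the main fit 1819. The interaction (9 lower) gave 4 with quantile normalization, 14 without the knockout libraries numbered 1, and 0 with median-of-ratios scaling, the compared libraries alone, or the length trend removed, with or without the block. Heavy minus Light in control (1 lower) gave 2 with the compared libraries alone. In knockout (1 lower) it gave 2 with quantile normalization, a mean of at least 1 CPM, voom or the block by genotype and number, and 0 with the compared libraries alone or the block with the length trend removed.

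With a replicate block alone, the counts were 0 and 0 in Total, 14 higher and 1 lower in Light, 9 lower in Heavy, and 8 lower for the interaction (10 with the block by genotype and number). Same-numbered Light and Total knockout libraries also deviated together (r 0.434 to 0.642). In control cells they did not (r -0.647 to 0.355), while Light control replicate 3 and Total control replicate 1 gave r 0.78. No comparison here sets Light against Total RNA, but the block by genotype and number also ties same-numbered Total libraries to the fractions. Leaving out 1 library at a time gave 0 to 0 in Total, 9 to 17 higher and 0 to 2 lower in Light, 0 to 2 higher and 3 to 14 lower in Heavy, 0 to 16 lower for the interaction with Light and 0 to 0 with Total, 29 to 29 higher and 1 to 1 lower for Heavy minus Light in control, 24 to 26 and 1 to 3 in knockout, and 25 to 28 and 1 to 1 for Heavy minus Total. Where this leaves 2 libraries in a group, the spread is shared with the other groups. Psmd5 turned in Light RNA with the coding length trend removed (-0.0438, adjusted p = 0.714, and -0.0438, adjusted p = 0.729, with the block). Of genes called for Heavy minus Light, 38.6% were higher in knockout cells and 55.8% with quantile normalization; for Heavy minus Total the shares were 29.1% and 56.0%, and in Total RNA after knockout 60.9% and 48.9%. The lowest member value was 14.4 CPM, and lower members are the less precisely counted.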
